A study of Homo sapiens with 4 samples.

Results

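The genes described here maintain the ends of chromosomes, and there are 10 of them among the 18417 genes measured. They are *ATRX* and *DAXX*, the telomerase genes *TERT* and *DKC1*, and the shelterin genes *TERF1*, *TERF2*, *TERF2IP*, *POT1*, *TINF2* and *ACD*. They were chosen by name from the platform's gene symbols, and each was read from its probe set with the highest mean over the arrays. All 10 were measured, 7 by 1 probe set and 3 by more than 1. HOS and U2-OS, a pair of established human osteosarcoma lines, were profiled after 24 h with OGE at 0 or 600 μg/mL. The labels do not say what OGE is. Each of the 4 combinations (HOS control, HOS with OGE, U2-OS control, U2-OS with OGE) was hybridised to 1 array, and all were grown in the same serum-supplemented medium. Each line stands for a single tumour.

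Shelterin is the protein complex that coats telomeric repeats and keeps them from being treated as broken DNA. Telomerase lengthens telomeres by copying an RNA template, but some tumours, many sarcomas among them, use recombination between telomeres in its place, a mechanism called alternative lengthening. U2-OS is a standard model of alternative lengthening, with no telomerase activity and with a deletion inside *ATRX* that removes the protein, while HOS is a telomerase-positive line. *ATRX* encodes a chromatin remodeller which, with its partner *DAXX*, places histone H3.3 at telomeres, and its loss is a hallmark of alternative lengthening.

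Values are RMA expression on the log2 scale, where a difference of 1 is 2-fold. A difference between 2 arrays was called by size when it was at least 1 and the higher value reached the median of all probe sets on its own array, called the floor below, and a difference between the lines had to pass with the same sign in both OGE states. The array medians lay between 3.58 and 3.62, and no pair of arrays held identical values. With 1 array per condition there is no replicate, so differences within a state or a line carry no test. limma was fitted to all genes with line and OGE as terms, so that each factor's states served as repeats for the other, with 1 residual degree of freedom. That degree of freedom holds how far a gene's OGE change differs between the lines, and limma blends it with a variance drawn from all genes. The labels name no separate cultures. The SEs and p-values therefore rest on that disagreement in these arrays and do not measure scatter between repeat cultures or arrays. The osteoblast and mesenchymal markers *VIM*, *SPARC*, *COL1A1* and *RUNX2* were at or above the floor on all 4 arrays and *IBSP* on none, with 7 of 8 measured markers reaching it on at least 1 array. Of the epithelial markers *KRT8* and *KRT18* were above the floor on all 4 arrays, *KRT19* on 3, *EPCAM* on 2 and *CDH1* on none. *PTPRC*, *CD3E* and *CD14* of the immune markers and all 4 endothelial markers stayed below it on all 4, whereas *CD68* was above it on all 4.

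Between the lines, U2-OS minus HOS in the chosen probe sets of the telomere genes ran from -0.42 to 0.58 without OGE and from -1.12 (*POT1*) to 0.31 with it. By size 0 of 10 were called, against 6.17% of the 11069 genes that could be called. *ATRX* and *POT1*, whose chosen probe sets were below the floor on all 4 arrays, could not be called, which leaves 8. By limma 0 of 10 passed an adjusted p of 0.05, against 1.92% of all genes. At an unadjusted p under 0.05 limma also gave 0 of the 10, and their smallest adjusted p was 0.328. The arrays of the lines did not overlap for 4 of the 10, where 42.8% of all genes showed the same. The median U2-OS minus HOS difference of the 10 genes was 0.135 without OGE and -0.15 with it, beside -0.03 and -0.01 for all genes. These counts are too close to the shares over all genes to set the 10 apart. A second probe set of *ATRX*, described next, gave a larger difference.

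**Figure D1:**
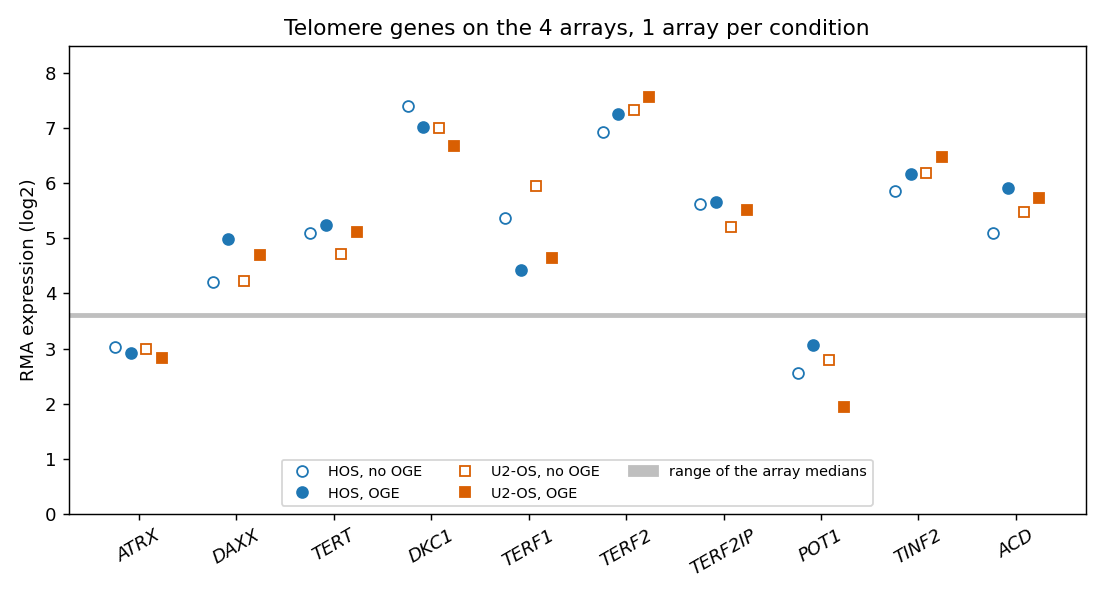
RMA expression (log2) of the 10 telomere genes on each of the 4 arrays, with circles for HOS, squares for U2-OS, open symbols without OGE and filled symbols with it, and a grey band at the array medians of 3.58 to 3.62. *ATRX* and *POT1* lie below the band on all 4 arrays, and *TERF1* is the gene whose filled symbols drop farthest in both lines.

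*ATRX* was read by 2 probe sets that disagreed. The probe set with the higher mean, which the rule selects, was at 3.02 in HOS and 2.91 in HOS with OGE, and at 2.99 in U2-OS and 2.83 in U2-OS with OGE. These 4 values all lay below the array medians, and the lines overlapped. U2-OS minus HOS was -0.03 without OGE and -0.08 with it, a mean of -0.06 ± 0.04 (SD, n = 2 states; limma SE 0.17, adjusted p = 0.911).

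The second *ATRX* probe set was at 3.37 in HOS and 3.64 in HOS with OGE, against 1.35 in U2-OS and 1.57 in U2-OS with OGE. The U2-OS arrays were both far below the HOS arrays, by 4.06-fold without OGE and 4.20-fold with it. The log2 differences were -2.02 and -2.07, a mean of -2.05 ± 0.04 (SD, n = 2 states). HOS with OGE reached its array's floor of 3.62 and HOS without OGE, at 3.37 against 3.60, did not, so the difference passed the size rule with OGE only. When limma was fitted to the lowest-mean probe set of every gene, this *ATRX* difference had an SE of 0.17 and an adjusted p of 0.0370. Quantile normalization gave 0.00140 and cyclic loess 0.00203, and with the mean of both probe sets the difference was -1.05 with an adjusted p of 0.0641. This probe set was singled out after its values were seen, so these p-values describe it and are no independent support.

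Such disagreement was uncommon on these arrays. Of the 769 genes with more than 1 probe set, 13 (1.69%) had probe sets whose line differences lay at least 1 apart in both OGE states. The *ATRX* probe sets lay 1.99 apart in each state, and 2 genes, *ATRX* and *CCDC88C*, reached that gap, beside a median of 0.11. The sources used here do not give the part of the gene that each probe set reads, so the deletion known in U2-OS and the position of the probes were not compared. OGE moved neither probe set far. The first changed by -0.11 in HOS and -0.16 in U2-OS, and the second by 0.27 and 0.22.

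The genes around *ATRX* on the X chromosome did not share the low U2-OS values of its second probe set. Among the 20 nearest genes at or above the median mean level, 10 on each side in RefSeq order, the median U2-OS minus HOS difference was 0.36 without OGE and 0.08 with it. Of these 20, 10 were higher in U2-OS in both states, *UBE2DNL* and *RPSAP15* were lower in both, and by size 1, *SRPX2*, was called higher and 0 lower. The share of all genes with the same sign in both states was not computed. The 5 genes whose mean-centred values over the 4 arrays lay closest to the first *ATRX* probe set were *GTF2B*, *SPRNP1*, *FZD9*, *PARP8* and *HSD17B8*, at Euclidean distances from 0.028 to 0.044 among 9209 genes. They share with it a nearly flat profile, and with 4 arrays such closeness is a description only.

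**Figure D2:**
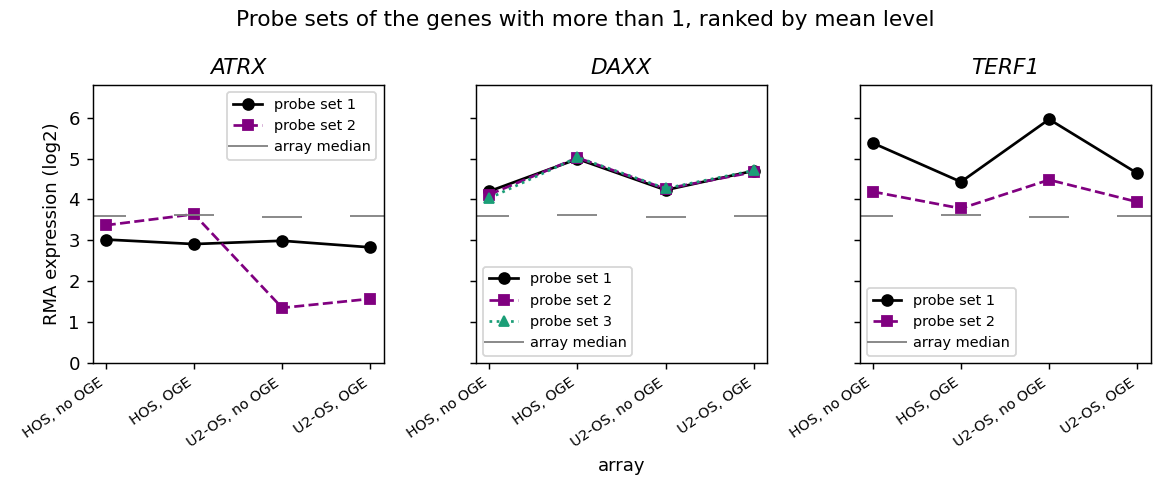
RMA expression (log2) of every single-gene probe set of *ATRX*, *DAXX* and *TERF1* on the 4 arrays, with grey dashes at each array's median. The first *ATRX* probe set is flat while the second falls from 3.37 and 3.64 in HOS to 1.35 and 1.57 in U2-OS, the 3 *DAXX* probe sets run together, and both *TERF1* probe sets are lower with OGE in each line.

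*DAXX*, the H3.3 chaperone that works with *ATRX*, had similar levels in the lines and higher values with OGE, short of either rule. It was at 4.20 in HOS and 4.99 in HOS with OGE, and at 4.23 in U2-OS and 4.70 in U2-OS with OGE. Both OGE arrays lay above both control arrays. It differed by 0.79 in HOS and 0.47 in U2-OS, a mean of 0.63 ± 0.23 (SD, n = 2 lines; limma SE 0.18, unadjusted p = 0.0220, adjusted p = 0.281). Among genes at the floor in HOS, 3.32% were higher with OGE by as much or more. Its other probe sets gave 0.90 and 1.00 in HOS and 0.41 and 0.44 in U2-OS, so with the lowest-mean probe set the HOS change just reached the size threshold. U2-OS minus HOS was 0.03 without OGE and -0.29 with it.

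*TERT*, the catalytic subunit of telomerase, showed no large gap between the telomerase-positive HOS and U2-OS. Its single probe set was at 5.10 in HOS and 5.25 in HOS with OGE, and at 4.72 in U2-OS and 5.11 in U2-OS with OGE. All 4 values exceeded the floor, and the lines overlapped by 0.01. U2-OS minus HOS was -0.38 without OGE and -0.14 with it, a mean of -0.26 ± 0.17 (SD, n = 2 states; limma SE 0.18, adjusted p = 0.508). Without OGE, 23.2% of genes at the floor were lower in U2-OS by as much or more. With OGE *TERT* was higher by 0.15 in HOS and 0.39 in U2-OS (limma SE 0.18, adjusted p = 0.554). Whether the signal of this probe set follows the *TERT* transcript at such levels was not tested. The 19 genes nearest to *TERT* on chromosome 5 had median line differences of -0.34 without OGE and -0.39 with it, beside -0.03 and -0.01 for all genes. For 9 of the 19 both U2-OS arrays were below both HOS arrays, where 23% of all genes did so. In both states 13 of them were lower in U2-OS, a count whose share over all genes was not computed.

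*DKC1* encodes dyskerin, the pseudouridine synthase that binds and stabilises the telomerase RNA and other H/ACA RNAs. It was at 7.40 in HOS and 7.02 in HOS with OGE, and at 7.00 in U2-OS and 6.69 in U2-OS with OGE. Both U2-OS arrays were below both HOS arrays, by a margin of 0.02 between the nearest pair. U2-OS minus HOS was -0.40 and -0.33, a mean of -0.37 ± 0.05 (SD, n = 2 states; limma SE 0.17, adjusted p = 0.328). OGE minus control was -0.38 in HOS and -0.31 in U2-OS (limma adjusted p = 0.445).

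The partners of telomerase outside the 10 genes tended to lower values in U2-OS. In a list of 12 genes of telomerase RNA, maturation and assembly, 11 were measured and *TEP1* was not analysed here. For 6 of the 11 both U2-OS arrays were below both HOS arrays and for 0 they were above, where 23% and 19.8% of all genes did so. The list's median difference was -0.46 without OGE and -0.45 with it, beside -0.03 and -0.01 for all genes, yet 0 of 11 were called between the lines by size in both states or by limma. *TERC*, the telomerase RNA, was at 6.01 in HOS and 6.46 in HOS with OGE, against 5.15 in U2-OS and 4.96 in U2-OS with OGE. *NOP10*, a small H/ACA protein that binds dyskerin, was at 7.83 and 7.53 in HOS and at 6.25 and 6.78 in U2-OS. *NHP2*, its companion in the complex, was at 7.43 and 7.39 in HOS and at 6.15 and 6.56 in U2-OS. These are values of the higher-mean of its 2 probe sets, and the other is not described here. Those 3 genes were picked after their values were seen. Each was past a difference of 1 in 1 OGE state only, *TERC* with OGE at -1.50 and *NOP10* and *NHP2* without it at -1.58 and -1.28. With OGE 0 of 11 were called by size in either line, and the median over the list changed by -0.04 in HOS and by 0.01 in U2-OS.

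Among factors that regulate *TERT*, *MYC* and *MXD1* were called higher with OGE in both lines, and *TERT* in neither. Of 14 factors known to bind its promoter, all measured, these 2 were called higher in each line, and 0 were lower. Across all genes that could be called, 1.7% were higher in HOS and 2.94% in U2-OS. *MYC*, an activator of *TERT*, was at 4.13 in HOS and 5.13 in HOS with OGE, and at 5.83 in U2-OS and 8.88 in U2-OS with OGE. It was called higher in U2-OS in both states, by 1.70 and 3.75, with a limma adjusted p of 0.0797 for line, above the threshold. Its change in HOS, 1.00, fell short of the threshold after quantile normalization (0.96) and cyclic loess (0.94). *MXD1*, which opposes *MYC* at the same sites, went from 4.53 to 6.45 in HOS and from 4.19 to 6.98 in U2-OS. Neither OGE change passed limma, with an adjusted p of 0.253 for *MYC* and 0.228 for *MXD1*. The 14 factors had a median OGE effect of 0.045 (HOS) and 0.225 (U2-OS), against 0.02 and 0.03 for all genes.

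**Figure D3:**
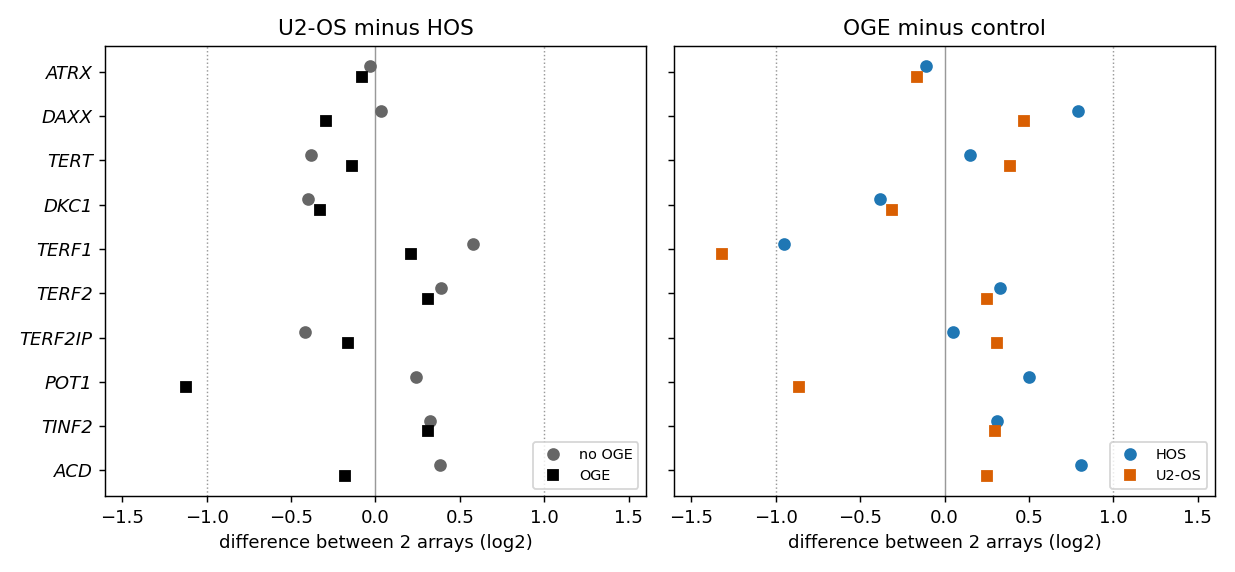
Log2 differences between 2 arrays for the 10 telomere genes, U2-OS minus HOS at left (circles without OGE, squares with it) and OGE minus control at right (circles HOS, squares U2-OS), with dotted lines at -1 and 1. At left *POT1* with OGE, at -1.12, is past a dotted line but below the floor, and at right *TERF1* in U2-OS, at -1.32, is the called change.

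With OGE, *TERF1* was the member that changed most. By size 0 of 10 members were called in HOS and 1, *TERF1*, in U2-OS, against 3.88% and 10.8% of the genes that could be called there. Here too *ATRX* and *POT1* could not be called, which leaves 8 members. By limma 0 of 10 were called, against 0% of all genes. At an unadjusted p under 0.05 limma gave 2 of the 10, *DAXX* and *TERF1*, and 2615 of 18417 genes. Both lines moved the same way in 9 of 10 members, 6 higher and 3 lower, where 60.3% of all genes shared a sign, 33% higher and 27.3% lower. The members had a median OGE effect of 0.23 (HOS) and 0.25 (U2-OS), beside 0.02 and 0.03 for all genes.

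*TERF1* encodes TRF1, a shelterin protein that binds double-stranded telomeric repeats and helps replication forks pass through them. It was at 5.38 in HOS and 4.43 in HOS with OGE, and at 5.96 in U2-OS and 4.64 in U2-OS with OGE. Both OGE arrays lay below both control arrays. OGE minus control was -0.95 in HOS, which is 1.93-fold lower and just short of the threshold, and -1.32 in U2-OS, which is 2.50-fold lower. The mean was -1.14 ± 0.26 (SD, n = 2 lines), and limma gave an SE of 0.19, an unadjusted p of 0.00256 and an adjusted p of 0.228, equal to the smallest over all genes. Among genes at the floor, 2.63% in HOS and 3.54% in U2-OS were lower by as much or more. Its second probe set went from 4.19 to 3.78 in HOS and from 4.48 to 3.94 in U2-OS, changes of -0.41 and -0.54. With the mean of both probe sets the changes were -0.68 and -0.93, and *TERF1* was no longer called in U2-OS. Over the alternatives its limma adjusted p ran from 0.0454 after quantile normalization to 0.761 without the line as a term. RefSeq lists several *TERF1* pseudogenes on other chromosomes, and whether they share signal with either probe set was not tested.

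The 5 genes with the profiles nearest to *TERF1* over the 4 arrays were *TMEM30A*, *SPTBN1*, *MAGT1*, *BMS1* and *SLC39A6*, at Euclidean distances from 0.084 to 0.127 among 9208 genes. *MAGT1*, which serves magnesium transport and protein glycosylation, is also the first gene after *ATRX* among its measured X chromosome neighbours. It was at 7.47 in HOS and 6.59 in HOS with OGE, and at 8.18 in U2-OS and 6.88 in U2-OS with OGE. U2-OS minus HOS for *TERF1* was 0.58 without OGE and 0.21 with it (limma SE 0.19, adjusted p = 0.342), which did not pass the threshold. Its 20 neighbours on chromosome 8 had median OGE changes of -0.17 in HOS and -0.26 in U2-OS.

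*TERF2* encodes TRF2, which folds the chromosome end into a protected loop. It was at 6.94 in HOS and 7.27 in HOS with OGE, and at 7.33 in U2-OS and 7.58 in U2-OS with OGE. Both U2-OS arrays were above both HOS arrays, by 0.39 without OGE and 0.31 with it, a mean of 0.35 ± 0.06 (SD, n = 2 states; limma SE 0.17, adjusted p = 0.346). With OGE it was higher by 0.33 in HOS and 0.25 in U2-OS (limma adjusted p = 0.506). *TERF1* and *TERF2*, the shelterin proteins that bind double-stranded repeats, had OGE changes of opposite sign in both lines, a difference that was not itself tested.

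*TINF2* encodes TIN2, the bridge between TRF1, TRF2 and the single-strand binding pair. It was at 5.87 in HOS and 6.18 in HOS with OGE, and at 6.19 in U2-OS and 6.49 in U2-OS with OGE. Within each OGE state U2-OS lay above HOS, by 0.32 and 0.31, and OGE lay above control by 0.31 in HOS and 0.30 in U2-OS. Across states the lines barely separated, with U2-OS control at 6.19 and HOS with OGE at 6.18. The OGE and control arrays overlapped between the lines. The limma SE was 0.17 for both terms, with adjusted p = 0.392 for line and adjusted p = 0.488 for OGE.

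*ACD* encodes TPP1, which recruits telomerase to the chromosome end and carries POT1. It was at 5.10 in HOS and 5.91 in HOS with OGE, and at 5.48 in U2-OS and 5.73 in U2-OS with OGE. Both OGE arrays were above both controls, by 0.81 in HOS and 0.25 in U2-OS, a mean of 0.53 ± 0.40 (SD, n = 2 lines; limma SE 0.21, adjusted p = 0.371). In HOS 3.10% of genes at the floor were higher by as much or more.

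*TERF2IP* encodes RAP1, the partner of TRF2. It was at 5.62 in HOS and 5.67 in HOS with OGE, and at 5.20 in U2-OS and 5.51 in U2-OS with OGE. Both U2-OS arrays were below both HOS arrays, by 0.42 and 0.16 (limma SE 0.18, adjusted p = 0.460). Its 20 neighbours on chromosome 16 ran the other way, with median line differences of 0.265 and 0.31, beside -0.03 and -0.01 for all genes. In both states 15 of 20 were higher in U2-OS, a count whose share over all genes was not computed. OGE changes were 0.05 and 0.31.

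*POT1* encodes the protein that binds the single-stranded telomeric overhang. It was at 2.56 in HOS and 3.06 in HOS with OGE, and at 2.80 in U2-OS and 1.94 in U2-OS with OGE. All 4 values were below the array medians, where RMA compresses differences. It was the only member whose OGE changes differed in sign, 0.50 in HOS and -0.86 in U2-OS, and its line difference went from 0.24 without OGE to -1.12 with it. The limma SE was 0.36, the widest of the 10, with an adjusted p of 0.590 for line and 0.859 for OGE.

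Promoter windows are shown for 4 members with a window among those searched in the RefSeq promoter table. They are the members with such a window that are at or above the floor on all arrays, are not *TERT* and moved the same way with OGE in both lines. *TINF2*, *ACD* and *TERF2IP* moved upward and *DKC1* downward. Of the 10 members, 6 had a window among those searched. *TERF1* meets the other rules but had no window among them, which does not show that RefSeq holds none for it. Each window runs from 250 bases before to 50 bases after a transcription start in GRCh38.p14, 5′ to 3′ on the gene's strand. Capitals mark short motifs searched on both strands, so a reverse complement is in capitals too. They are the GC box (letters GGGCGG), the NF-Y box (letters CCAAT), the E-box that MYC and MXD1 bind with MAX (letters CACGTG), the core of the ETS motif (letters CCGGAAG) and the core of the NRF1 motif (letters GCATGCG), and motifs were allowed to overlap.
DKC1, chrX:154762614-154762913, plus strand: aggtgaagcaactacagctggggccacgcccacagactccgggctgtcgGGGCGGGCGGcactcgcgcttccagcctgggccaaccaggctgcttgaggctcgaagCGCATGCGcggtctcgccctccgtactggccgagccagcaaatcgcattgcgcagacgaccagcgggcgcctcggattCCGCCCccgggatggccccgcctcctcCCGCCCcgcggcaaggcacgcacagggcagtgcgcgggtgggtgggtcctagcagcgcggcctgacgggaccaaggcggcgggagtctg
TINF2, chr14:24242574-24242873, minus strand: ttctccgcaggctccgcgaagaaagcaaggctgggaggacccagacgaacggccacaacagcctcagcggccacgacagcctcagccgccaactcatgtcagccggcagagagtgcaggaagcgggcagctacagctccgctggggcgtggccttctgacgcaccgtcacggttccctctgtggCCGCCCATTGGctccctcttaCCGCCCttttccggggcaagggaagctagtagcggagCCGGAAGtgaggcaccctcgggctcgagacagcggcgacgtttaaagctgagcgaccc
ACD, chr16:67660211-67660510, minus strand: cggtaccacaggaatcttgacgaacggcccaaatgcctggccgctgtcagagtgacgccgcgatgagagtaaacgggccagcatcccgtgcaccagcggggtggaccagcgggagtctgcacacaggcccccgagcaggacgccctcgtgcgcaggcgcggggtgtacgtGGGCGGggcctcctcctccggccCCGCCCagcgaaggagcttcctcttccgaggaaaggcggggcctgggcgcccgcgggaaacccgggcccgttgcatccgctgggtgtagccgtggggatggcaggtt
TERF2IP, chr16:75647523-75647822, plus strand: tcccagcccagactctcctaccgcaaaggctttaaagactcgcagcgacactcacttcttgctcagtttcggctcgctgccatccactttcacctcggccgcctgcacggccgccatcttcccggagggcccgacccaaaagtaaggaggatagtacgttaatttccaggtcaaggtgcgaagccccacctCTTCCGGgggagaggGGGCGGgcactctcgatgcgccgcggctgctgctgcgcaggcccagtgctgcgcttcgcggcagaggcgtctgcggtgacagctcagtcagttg

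A GC box occurred in all of these windows, 4 times for *DKC1*, 2 times each for *TINF2* and *ACD* and 1 time for *TERF2IP*. Of the 35116 windows of this length that were searched, 45% held one. *TINF2* also held 1 NF-Y box directly beside a GC box, a motif present in 34.6% of windows. *TINF2* and *TERF2IP* each held 1 ETS motif, which 10.3% of windows hold. *DKC1* held the core of the NRF1 motif in 2 overlapping matches on opposite strands, and 3.91% of windows hold it. An E-box, in 7.26% of windows, was in none of the 4. Matches describe letters in these windows and are not binding sites.

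Of the genes that replicate and process telomeric DNA, some were called lower with OGE in U2-OS, 2 of 6 and 4 of 13 in the lists below, and limma called 0. In that line 7.88% of all genes that could be called were lower. Whether the response differs between the lines was not tested. In the list of the CST complex and DNA polymerase alpha-primase, which fills in the telomeric C-strand, 6 of 7 genes were measured and *TEN1* was not analysed here. In U2-OS 2 of the 6 were called lower and 0 higher, in HOS 0 were called, and limma called 0. *PRIM1*, the small primase subunit, went from 6.82 to 6.17 in HOS and from 7.40 to 5.71 in U2-OS. *POLA1*, the catalytic subunit of the polymerase, went from 5.74 to 5.32 in HOS and from 5.45 to 4.11 in U2-OS. Over these 6 genes the median effect was -0.065 (HOS) and -0.77 (U2-OS).

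Shelterin partners and telomere processing genes gave 4 of 13 lower and 0 higher by size in U2-OS, and 0 called in HOS, with *RTEL1* not analysed here. Over these 13 genes the median effect was -0.06 (HOS) and -0.50 (U2-OS). *DNA2*, a nuclease and helicase, went from 4.06 to 4.51 in HOS and from 5.54 to 3.87 in U2-OS. *XRCC5*, the Ku80 subunit of the Ku end-binding complex, went from 8.72 to 8.09 and from 8.48 to 7.05. *EXO1*, which resects DNA ends, went from 6.17 to 6.19 and from 6.82 to 5.53. The fourth was *RIF1*, which controls replication timing and repair, at 5.38 and 4.26 in U2-OS. None of the first 3 passed limma, with adjusted p from 0.252 to 0.650.

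Genes of recombination at telomeres and of PML bodies, the sites where such telomeres gather, were described over 20 genes, and *FANCD2* and *NR2F2* were not analysed here. By size 1 was higher in HOS, and 2 were lower in U2-OS and 0 higher, beside 1.7% of all genes higher in HOS and 7.88% lower in U2-OS, with median effects over the 20 genes of -0.045 (HOS) and -0.40 (U2-OS). *TOP3A*, a topoisomerase that works with *BLM*, went from 6.06 to 7.16 in HOS and from 5.53 to 5.97 in U2-OS. *MRE11*, a nuclease of the MRN complex, went from 3.40 to 2.64 and from 3.81 to 2.39, and the helicase gene *BLM* from 5.15 to 5.10 and from 5.21 to 3.90. Between the lines 0 of 20 were called by size or by limma. *PML* itself was at 4.66 and 4.55 in HOS and at 4.38 and 4.13 in U2-OS.

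Of histone H3.3 and its chaperones, 9 of 10 were measured and *H3-3A* was not analysed here. *SETDB1*, a histone H3 lysine 9 methyltransferase, was the gene of this list called between the lines. It was at 6.43 in HOS and 6.98 in HOS with OGE, against 5.27 in U2-OS and 5.28 in U2-OS with OGE. The differences were -1.16 and -1.70, and limma gave an adjusted p of 0.0569, above the threshold. With OGE, *CBX5*, which encodes the heterochromatin protein HP1 alpha, was called lower in U2-OS, from 8.04 to 6.41, and went from 7.77 to 7.13 in HOS. The 9 genes had a median OGE effect of -0.07 (HOS) and -0.58 (U2-OS).

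**Figure D4:**
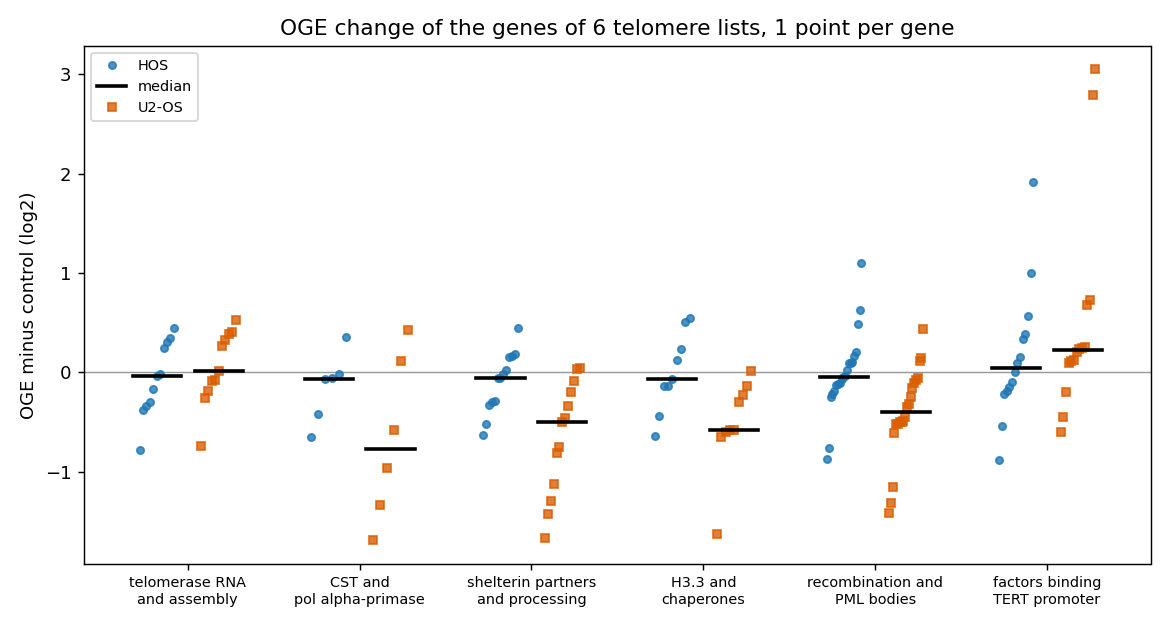
OGE minus control (log2) for every measured gene of 6 lists around telomere maintenance, with circles for HOS, squares for U2-OS, 1 point per gene and black bars at the list medians. The U2-OS medians lie at -0.77, -0.50, -0.58 and -0.40 for the second to the fifth list and near 0 for telomerase assembly, and *MYC* and *MXD1* are the highest points at right.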

How the data were processed

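Per the submitters' processing notes the authors processed the arrays with RMA, version not given, and deposited 1 value per probe set and array. The log2 scale was taken from the range of the deposited values, 0.16 to 13.41. RMA pulls low signals together and hides a shift shared by most genes. The table holds 33297 probe sets, of which 19460 have 1 symbol in the platform annotation. Symbols were updated by gene ID to RefSeq (19429 matched), giving 18417 genes, with the highest-mean probe set used for the 769 genes with several.

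limma 3.58.1 (R 4.3.3) was fitted to all genes with line and OGE as terms and Benjamini-Hochberg adjustment at 0.05, and was tested on simulated data. Calls by size are defined in the report. Alternatives were thresholds of 1.5-fold and 3-fold, no floor or the 75th percentile as floor, quantile normalization, cyclic loess, the mean of probe sets, trend and robust moderation, a single term, and a filter at the median mean level. The lowest-mean probe set was added after the data were seen. The members, the 6 lists and the naming rule (list genes called between the lines, and up to 3 more called with OGE) were chosen with earlier results of these data known. Promoter sequences are RefSeq's, GRCh38.p14. No source used here gives the genome build of the probe sets.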

Additional observations from a re-analysis of the deposited data

Results flagged for a closer look

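In 10 of the 22 members and list genes named by rule, a contrast had opposite signs in the 2 groups compared, and none of these differences was tested, since each sign rests on 1 pair of arrays. The share of all genes with opposite signs in either contrast was not computed. For the OGE contrast alone, 60.3% of all genes had the same sign in both lines. The count is therefore not read as a trait of these genes. With OGE, *POT1* had changes of 0.50 (HOS) and -0.86 (U2-OS), -1.36 apart. *DNA2* had 0.45 and -1.67, -2.12 apart, and *EXO1* 0.02 and -1.29, -1.31 apart.

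For the other genes the sign of U2-OS minus HOS turned between the OGE states. Among members, *ACD* went from 0.38 without OGE to -0.18 with it, a shift of -0.56, and *DAXX* from 0.03 to -0.29, a shift of -0.32. *PRIM1* went from 0.58 to -0.46 (-1.04), *BLM* from 0.06 to -1.20 (-1.26), *CBX5* from 0.27 to -0.72 (-0.99) and *MRE11* from 0.41 to -0.25 (-0.66). *MXD1* went the other way, from -0.34 to 0.53, a shift of 0.87.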

How the results depend on the processing

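The line calls of the 10 members stayed at 0 by size under all 8 alternatives and at 0 by limma under the 6 planned ones, of which the filter at the median mean level left out *ATRX* and *POT1*, and became 1, *ATRX*, with the lowest-mean probe set, also with quantile normalization or cyclic loess. OGE calls by size in HOS went from 0 to 3 at 1.5-fold (*DAXX*, *TERF1*, *ACD*), to 1 with cyclic loess (*TERF1*) and to 1 with the lowest-mean probe set (*DAXX*). In U2-OS the 1 call, *TERF1*, became 0 at 3-fold, with the mean of probe sets and with the lowest-mean probe set. By limma the OGE count of 0 became 1, *TERF1*, after quantile normalization. The causes were not tested beyond what the threshold or the probe set fixes. Of 200 recomputed differences of single named genes, 191 kept their status as called or uncalled, 3 gained a call, 6 lost it and 0 reversed. A difference that stayed uncalled counts as kept however far its size moved. That of *ATRX* between the lines without OGE is one of these, at -0.03 with the highest-mean probe set. Most of the 200 are from the 2 other normalizations, so the count says little about the choice of probe set. Besides the members above, *MYC* with OGE in HOS and *XRCC5* between the lines with OGE lost their call after both other normalizations. Leaving out an array was not possible, since it would leave no residual degrees of freedom. The labels give no replicate numbers, and the fit already pairs arrays by line and by OGE state. Without the line as a term the adjusted p of *TERF1* was 0.761, against 0.228 with it. Signal near the floor limits *ATRX* and *POT1* most.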

Other observations

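*DKC1* hosts small nucleolar RNAs in its introns, and 2 further probe sets carry *DKC1* together with such RNAs and so entered no comparison. The one annotated to *SNORA56* and *DKC1* was at 3.02 in HOS and 3.41 in HOS with OGE, and at 2.62 in U2-OS and 3.55 in U2-OS with OGE. OGE minus control was 0.39 and 0.93 there, against -0.38 and -0.31 for the *DKC1* probe set of the report, and all 4 values were below the array medians. The one annotated to *MIR664B*, *SNORA36A* and *DKC1* changed by -0.01 in HOS and 0.13 in U2-OS.

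The promoter window of *TERF2IP* overlaps that of *KARS1*, the lysyl-tRNA synthetase gene on the opposite strand. *KARS1* was at 7.31 in HOS and 6.89 in HOS with OGE, and at 6.88 in U2-OS and 6.98 in U2-OS with OGE. Without OGE both genes were lower in U2-OS, *KARS1* by 0.43 and *TERF2IP* by 0.42, and with OGE *KARS1* differed by 0.09 and *TERF2IP* by -0.16.

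The neighbours of *POT1* on chromosome 7 had median line differences of -0.405 without OGE and -0.295 with it, while *POT1* had 0.24 and -1.12. For 8 of the 20 both U2-OS arrays were below both HOS arrays, where 23% of all genes did so. In both states 14 of 20 were lower in U2-OS, a count whose share over all genes was not computed.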
